A study of Homo sapiens with 36 samples.

Results

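The 36 genes described here encode the core machinery of macroautophagy and were chosen by name. Each of the 36 symbols matched 1 gene among the 57232 genes of the count table, and all 36 had counts in each of the 36 libraries. All of them passed the filter on low counts, which left 18696 genes for testing. By role they comprised 5 subunits of the ULK kinase complex, 6 proteins of the class III PI3-kinase complexes, 6 factors of membrane supply and PI3P binding, 10 conjugation enzymes, 5 ATG8 proteins and 4 cargo receptors.

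In macroautophagy a flat membrane forms in the cytoplasm, closes around cargo and fuses with lysosomes, where the cargo is digested. The ULK kinase complex starts the process, the lipid kinase PIK3C3 with its partners marks the membrane with the phospholipid PI3P, and WIPI proteins bind that lipid. Lipid transfer proteins and scramblases enlarge the membrane, and conjugation enzymes attach ATG8 proteins (the LC3 and GABARAP families) to it, which in turn hold cargo receptors. In fibroblasts the pathway removes damaged proteins and organelles, and it has been studied in oncogene-induced senescence.

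RNA was sequenced from IMR90 ER:RAS cells, a line of human lung fibroblasts in which 4-hydroxytamoxifen (4OHT) switches on a RAS oncoprotein joined to the hormone-binding part of the oestrogen receptor. Cells of passage 14 were kept for 6 days in DMEM with 10% FBS, fresh medium being given on day 3. Cells with 100 nM 4OHT, called senescent here, then received ouabain, digoxin or vehicle, and cells without 4OHT, called proliferating, received vehicle. Each of these 4 treatments was sampled after 36 h with a caspase inhibitor overnight, after 36 h without it and after 16 h, giving 12 groups of 3 libraries. Ouabain and digoxin are cardiac glycosides, which block the sodium-potassium pump of the cell membrane. The labels give no dose for either drug or for the inhibitor, no drug was given to proliferating cells, and all drug-treated cells also carried 4OHT. Whether libraries of 1 group stem from different cultures is not stated. The p-values therefore cover only differences among libraries as sequenced, which can be technical.

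Library totals lay between 10854351 and 21446415 counts, and values below are library-size-normalised counts (CPM) scaled by TMM. Libraries of 1 group differed by a median of 0.10 to 0.42 on the log2 scale over genes, and in the ouabain 16 h and proliferating 16 h groups replicate 2 stood apart from the other libraries. HRAS was higher in senescent than in proliferating cells at 36 h with the inhibitor, 36 h and 16 h (log2 change 1.25, 1.16 and 1.22), and the proliferation marker MKI67 was lower (-4.99, -4.45 and -5.74). All 8 fibroblast markers had counts, and their summed level was 5684 to 6659 CPM with either drug at 36 h, 11813 to 13063 CPM with either drug at 16 h, 10807 to 11652 CPM in senescent vehicle cells and 16115 to 19367 CPM in proliferating cells. Of 5 epithelial markers 4 had counts, SFTPC being at 0, and their sum was 0.470 to 2.07 CPM in every library. The sum of 6 leukocyte markers was 2.29 to 7.50 CPM with either drug and 0.574 to 1.56 CPM with vehicle. The sum of 3 endothelial markers was 2.55 to 5.04 CPM with either drug, 5.89 to 8.63 CPM in senescent vehicle cells and 11.1 to 17.9 CPM in proliferating cells. The part of these shifts in the results below was not tested. Where a gene overlaps another on the opposite strand, reads of the pair cannot be told apart without the strand setting of the counting, which is not given in the sources used here. This concerns 19 of the 36: ATG13, ATG101, BECN1, UVRAG, RUBCN, ATG2B, VMP1, WIPI1, ATG3, ATG4B, ATG4D, ATG7, ATG10, ATG12, MAP1LC3B, GABARAPL1, NBR1, OPTN and TAX1BP1. In such bulk libraries fewer cells of a type and less RNA per cell cannot be told apart.

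The 36 genes covered a wide range of expression. Per kilobase of exon, MAP1LC3B stood highest of the 36 with ouabain at 36 h (737 ± 27.8 CPM per kb), with digoxin at 36 h (873 ± 36.1 CPM per kb) and in senescent vehicle cells at 36 h (79.7 ± 1.96 CPM per kb; SD, n = 3 each). In proliferating cells at 36 h GABARAPL1 stood highest (56.0 ± 3.77 CPM per kb), ahead of MAP1LC3B (42.6 ± 1.54 CPM per kb). OPTN came next after MAP1LC3B with ouabain (58.1 ± 2.25 CPM per kb), with digoxin (54.2 ± 1.70 CPM per kb) and in senescent vehicle cells (53.4 ± 0.452 CPM per kb). ATG10, the enzyme that carries ATG12 in the first conjugation step, stood lowest in all 4 of these groups, at 0.371 ± 0.116 CPM per kb with ouabain, 0.317 ± 0.0877 with digoxin, 0.976 ± 0.0781 in senescent vehicle cells and 1.29 ± 0.0738 in proliferating cells. Across the 12 groups the mean level of MAP1LC3B differed most, with a ratio of 21.5 between the highest group (digoxin at 36 h with the inhibitor) and the lowest (proliferating at 16 h). BECN1, the scaffold of the PI3-kinase complexes, differed least, its group means lying between 85.3 and 102 CPM, a ratio of 1.20. PSME3, which overlaps BECN1 on the opposite strand, had 120856 counts in all libraries together, against 58674 for BECN1.

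**Figure D1:**
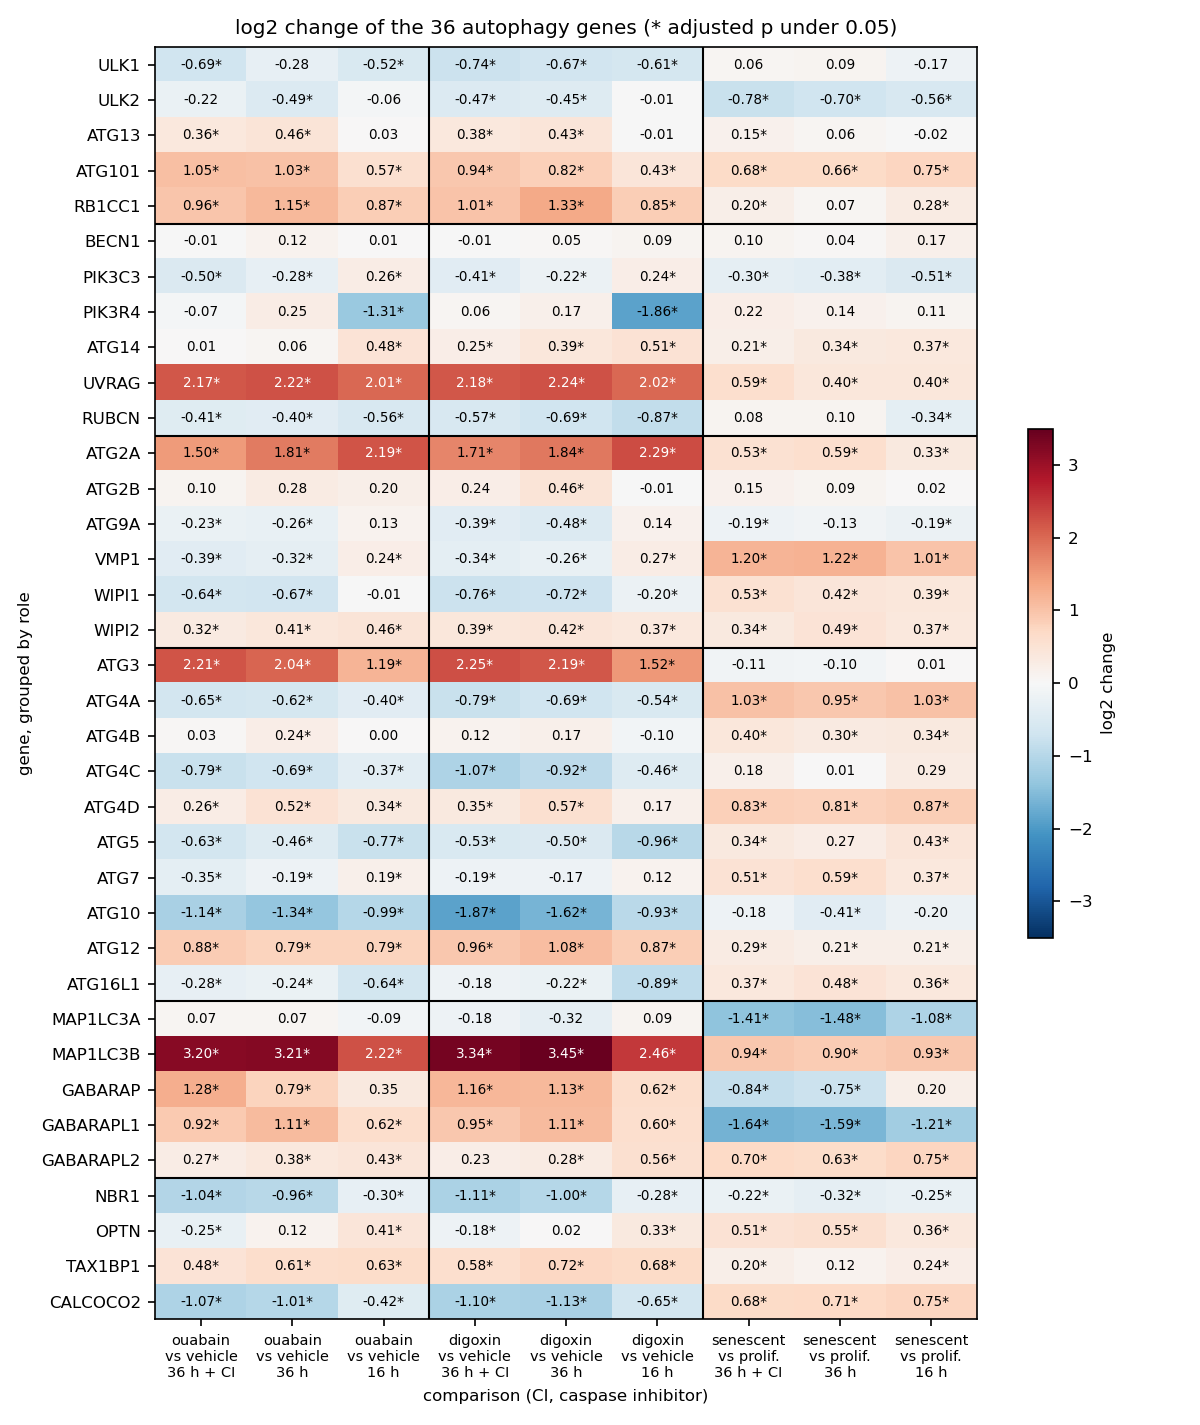
Log2 changes of the 36 autophagy genes (rows, grouped by role) in 9 comparisons (columns): ouabain against vehicle and digoxin against vehicle in senescent cells, and senescent against proliferating cells, each at 36 h with the caspase inhibitor (CI), at 36 h and at 16 h. Colour and number give the log2 change, and a star marks an adjusted p under 0.05; MAP1LC3B carries the highest drug values, 3.21 with ouabain and 3.45 with digoxin at 36 h, and PIK3R4 the lowest at 16 h, -1.31 with ouabain and -1.86 with digoxin.

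The first question was what the cardiac glycosides did to autophagy genes in senescent cells. Both drugs moved genes of the 36 in both directions, with 4 large rises: MAP1LC3B, UVRAG, ATG2A and ATG3 were higher with either drug in every arm. With ouabain, 14, 15 and 17 of the 36 were called higher and 15, 14 and 10 lower than with vehicle at 36 h with the inhibitor, at 36 h and at 16 h (edgeR's quasi-likelihood test, Benjamini-Hochberg adjusted p under 0.05 over all 18696 genes). With digoxin, 14, 16 and 16 were called higher and 15, 14 and 11 lower. Over all genes tested, 28.9%, 30.2% and 25.1% were called higher and 30.6%, 30.8% and 28.4% lower with ouabain, and 30.3%, 31.6% and 28.3% higher and 32.1%, 32.4% and 31.3% lower with digoxin. In either direction 59.5%, 61.0% and 53.4% of all genes were called with ouabain and 62.4%, 64.0% and 59.6% with digoxin, against 80.6%, 80.6% and 75% of the 36 with ouabain and 80.6%, 83.3% and 75% with digoxin. The median log2 change of the 36 was -0.002, 0.12 and 0.19 with ouabain, against -0.005, -0.002 and 0.022 for all genes, and 0.025, 0.11 and 0.13 with digoxin, against -0.024, -0.025 and 0.021 for all genes. Regardless of sign, the median log2 change of the 36 was 0.491, 0.476 and 0.425 with ouabain, against 0.592, 0.595 and 0.473 for all genes. With digoxin it was 0.548, 0.623 and 0.523, against 0.648, 0.664 and 0.558 for all genes. The 36 were thus called more often than all genes, but their changes were not larger. The genes compared were not matched by expression level, and the part of that level was not tested. Both drugs were set against the same vehicle libraries, so their calls are not independent of each other.

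The split between rises and falls depended on the scaling, more in some arms than in others. TMM scaling placed the median of all genes near 0, whereas scaling by library totals alone lowered it by 0.21 to 0.31 in the drug comparisons and by 0.10 to 0.15 in the senescence comparisons. With library totals, 11 members were called higher and 18 lower for ouabain at 36 h with the inhibitor, and 11 higher and 15 lower for ouabain at 16 h. The same scaling gave 11 higher and 18 lower for digoxin at 36 h, and 10 higher and 18 lower for digoxin at 16 h. For ouabain at 36 h it gave 13 higher and 15 lower, against 15 and 14 with TMM. For digoxin at 36 h with the inhibitor it gave 12 higher and 17 lower, against 14 and 15 with TMM. These arms moved least. All genes tested also shifted toward falls with library totals. For ouabain, library totals called 4162 genes higher and 7385 lower at 36 h with the inhibitor, and 2784 and 7769 at 16 h. With TMM these counts were 5398 and 5724, and 4688 and 5302. For digoxin, library totals called 4278 higher and 8406 lower at 36 h, and 2937 and 8199 at 16 h. With TMM these counts were 5909 and 6054, and 5285 and 5859. For ouabain at 36 h library totals called 4348 genes higher and 7575 lower, against 5642 and 5761 with TMM. For digoxin at 36 h with the inhibitor they called 4313 and 7841, against 5673 and 5999 with TMM. Under every alternative tried, 24, 25 and 20 calls for ouabain and 25, 24 and 20 for digoxin were made at 36 h with the inhibitor, at 36 h and at 16 h. Where leaving out 1 library or another setting ended a call, it is named in the gene's paragraph, with the log2 change found there in brackets.

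Among the ATG8 proteins, MAP1LC3B, the LC3 form most used to follow autophagosomes, rose most. It measured 4583, 4389 and 4163 CPM with ouabain at 36 h with the inhibitor, 3748, 4024 and 3976 CPM at 36 h and 2330.4, 1454 and 2258 CPM at 16 h. With digoxin it measured 4707, 4849 and 4974 CPM, 4833, 4627 and 4449.5 CPM and 2374, 2432 and 2319.6 CPM in the same order. Senescent vehicle libraries held 474, 466 and 491 CPM, 418, 416 and 435 CPM and 448, 421 and 425 CPM, and proliferating libraries 242, 247 and 257 CPM, 225, 219 and 236 CPM and 246, 201 and 229 CPM. Every drug-treated library lay above every vehicle library, and among the drug-treated ones ouabain 16 h replicate 2 was lowest. The log2 change was 3.20 ± 0.10, 3.21 ± 0.10 and 2.22 ± 0.10 with ouabain and 3.34 ± 0.10, 3.45 ± 0.10 and 2.46 ± 0.10 with digoxin (± SE), which is 9.25-fold and 11.0-fold at 36 h (adjusted p = 2.06e-23 and 2.29e-24). Without ouabain 16 h replicate 2 and proliferating 16 h replicate 2, the change with ouabain at 16 h was 2.41.

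GABARAPL1, a GABARAP-family ATG8 protein, held 161, 167 and 164 CPM with ouabain at 36 h and 164, 169 and 158 CPM with digoxin, against 75.4, 80.1 and 71.8 CPM in senescent vehicle cells. No drug-treated library overlapped the vehicle libraries, and all stayed below the proliferating ones, which held 229.8, 213 and 244 CPM. Its log2 change was 0.92 ± 0.087, 1.11 ± 0.086 and 0.62 ± 0.086 with ouabain and 0.95 ± 0.086, 1.11 ± 0.086 and 0.60 ± 0.086 with digoxin at 36 h with the inhibitor, at 36 h and at 16 h. GABARAP rose with ouabain at 36 h with and without the inhibitor (1.28 and 0.79) and with digoxin in all 3 arms (1.16, 1.13 and 0.62), but its counts were low. It averaged 6.27 ± 1.69 CPM with ouabain, 8.15 ± 0.507 CPM with digoxin and 3.73 ± 0.648 CPM with vehicle at 36 h (SD, n = 3 each), and the ouabain and vehicle libraries overlapped there. GABARAPL2 changed by 0.27, 0.38 and 0.43 with ouabain, all called, and by 0.23, 0.28 and 0.56 with digoxin, of which the first was not called and the value at 36 h turned to -0.032 with library totals. MAP1LC3A, an LC3 form with 4.20 ± 0.425 CPM with ouabain, 3.23 ± 1.07 CPM with digoxin and 4.02 ± 0.491 CPM with vehicle at 36 h, was not called with either drug (0.072, 0.073 and -0.085 with ouabain and -0.18, -0.32 and 0.094 with digoxin). GABARAPL3, a near copy of GABARAPL1, had 2167 counts in all libraries together, against 94494 for GABARAPL1. The near copies of MAP1LC3B, MAP1LC3B2 and MAP1LC3BP1, had 6 and 12 counts, against 1119838 for MAP1LC3B. GABARAP lost its call with digoxin at 16 h on leaving out digoxin replicate 3 or senescent replicates 2 or 3 (0.49 to 0.58). GABARAPL2 lost its call with ouabain at 36 h with the inhibitor on leaving out ouabain replicates 1 or 2 or senescent replicates 1 or 2 (0.22 to 0.25). GABARAPL2 lost its call with digoxin at 36 h on leaving out digoxin replicate 2 or senescent replicate 2 (0.25 to 0.26). GABARAP with digoxin at 16 h (0.30) and GABARAPL2 with ouabain at 36 h with the inhibitor (0.053), with ouabain at 36 h (0.16) and with ouabain at 16 h (0.14) lost their calls under library totals. GABARAPL2 with digoxin at 36 h (0.22) lost its call without the filter on low counts.

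In the PI3-kinase complexes UVRAG rose most. UVRAG, which takes the place of ATG14 in the complex that acts on endosomes, measured 115, 127 and 133 CPM with ouabain at 36 h and 129, 126 and 128 CPM with digoxin, against 26.8, 26.2 and 27.8 CPM with vehicle. At 16 h it measured 120.1, 74.7 and 118 CPM with ouabain and 106, 107 and 100.4 CPM with digoxin, against 24.8, 24.1 and 28.5 CPM with vehicle, so the groups did not overlap at either time. The log2 change was 2.17 ± 0.11, 2.22 ± 0.11 and 2.01 ± 0.11 with ouabain and 2.18 ± 0.11, 2.24 ± 0.11 and 2.02 ± 0.11 with digoxin at 36 h with the inhibitor, at 36 h and at 16 h. Without both deviating 16 h libraries the UVRAG change with ouabain at 16 h was 2.20. RUBCN, which inhibits the UVRAG complex, fell with both drugs in every arm (-0.41, -0.40 and -0.56 with ouabain and -0.57, -0.69 and -0.87 with digoxin). FYTTD1, which overlaps RUBCN on the opposite strand, had 66337 counts in all libraries together, against 18550 for RUBCN. BECN1 was not called in any arm (-0.009, 0.12 and 0.015 with ouabain and -0.006, 0.047 and 0.087 with digoxin), and library totals placed it lower at -0.27 for ouabain at 16 h, -0.27 for digoxin at 36 h and -0.23 for digoxin at 16 h.

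PIK3R4, the regulatory subunit that PIK3C3 needs for activity, fell at 16 h with both drugs and was not called at 36 h. It measured 8.29, 16.5 and 11.2 CPM with ouabain and 8.66, 8.88 and 7.18 CPM with digoxin, against 27.6, 30.2 and 32.0 CPM with vehicle, and the groups did not overlap. At 36 h it measured 39.1, 37.2 and 42.2 CPM with ouabain and 39.3, 35.8 and 37.2 CPM with digoxin, against 32.2, 36.6 and 30.9 CPM with vehicle, where the ouabain libraries lay just above the vehicle ones and the digoxin libraries overlapped them. The log2 change was -0.067 ± 0.12, 0.25 ± 0.12 and -1.31 ± 0.13 with ouabain and 0.055 ± 0.12, 0.17 ± 0.12 and -1.86 ± 0.14 with digoxin at 36 h with the inhibitor, at 36 h and at 16 h, of which the values at 16 h were called (adjusted p = 3.08e-10 and 1.28e-13). PIK3C3, the lipid kinase itself, fell with both drugs at 36 h with and without the inhibitor (-0.50 and -0.28 with ouabain, -0.41 and -0.22 with digoxin). At 16 h PIK3C3 was higher with TMM (0.26 with ouabain and 0.24 with digoxin) and slightly lower with library totals (-0.030 and -0.076), so its direction there depended on the scaling. Without ouabain 16 h replicate 2 and proliferating 16 h replicate 2, the PIK3R4 change with ouabain at 16 h was -1.62. ATG14, which directs the complex to autophagy, changed by 0.005, 0.055 and 0.48 with ouabain, called at 16 h, and by 0.25, 0.39 and 0.51 with digoxin, called in all arms; library totals turned the ouabain value with the inhibitor to -0.21. PIK3C3 lost its call with ouabain at 16 h on leaving out ouabain replicate 3 (0.17). ATG14 lost its call with digoxin at 36 h with the inhibitor on leaving out digoxin replicates 1 or 3 (0.19 to 0.22). ATG14 with digoxin at 36 h with the inhibitor (0.001) and with digoxin at 36 h (0.077) lost its calls under library totals. PIK3C3 with ouabain at 16 h (0.18) and with digoxin at 16 h (0.16) and ATG14 with digoxin at 36 h with the inhibitor (0.23) lost their calls without the filter on low counts.

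Among the membrane factors, ATG2A, a lipid transfer protein that feeds the growing membrane, measured 81.7, 85.6 and 86.7 CPM with ouabain and 83.5, 90.1 and 85.3 CPM with digoxin at 36 h, against 23.1, 25.6 and 23.5 CPM with vehicle. At 16 h it measured 113, 92.2 and 112 CPM with ouabain and 118, 114 and 108 CPM with digoxin, against 20.6, 25.0 and 23.8 CPM with vehicle. Drug and vehicle libraries did not overlap, and the drug libraries were higher at 16 h than at 36 h. The difference in the drug effect between the times was called for ATG2A with digoxin but not with ouabain. Its log2 change was 1.50 ± 0.12, 1.81 ± 0.12 and 2.19 ± 0.12 with ouabain and 1.71 ± 0.12, 1.84 ± 0.12 and 2.29 ± 0.12 with digoxin at 36 h with the inhibitor, at 36 h and at 16 h. Its paralogue ATG2B changed by 0.10, 0.28 and 0.20 with ouabain and 0.24, 0.46 and -0.011 with digoxin, and was called for digoxin at 36 h alone. WIPI2, a PI3P reader that recruits ATG16L1, rose in every arm (0.32, 0.41 and 0.46 with ouabain and 0.39, 0.42 and 0.37 with digoxin), whereas its relative WIPI1 fell at 36 h with and without the inhibitor (-0.64 and -0.67 with ouabain, -0.76 and -0.72 with digoxin). The scramblase ATG9A fell at 36 h with and without the inhibitor (-0.23 and -0.26 with ouabain, -0.39 and -0.48 with digoxin) and was 0.13 and 0.14 at 16 h, not called, with -0.18 for digoxin under library totals. WIPI1 lost its call with digoxin at 16 h on leaving out digoxin replicate 3 (-0.17). ATG9A lost its call with ouabain at 36 h with the inhibitor on leaving out ouabain replicate 2 (-0.19). ATG2B with digoxin at 36 h (0.14) and WIPI2 with ouabain at 36 h with the inhibitor (0.11), with digoxin at 36 h (0.11) and with digoxin at 16 h (0.055) lost their calls under library totals. ATG9A with ouabain at 36 h with the inhibitor (-0.24) lost its call without the filter on low counts.

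VMP1, a scramblase of the endoplasmic reticulum, measured 173, 199 and 196 CPM with ouabain and 186, 208 and 199 CPM with digoxin at 36 h, against 239, 234 and 236 CPM with vehicle. At 16 h it measured 268, 248 and 269 CPM with ouabain and 270.0, 269 and 263 CPM with digoxin, against 231, 213 and 223 CPM with vehicle. Drug libraries were the lower ones at 36 h and the higher ones at 16 h, without overlap. Its log2 change was -0.39 ± 0.079, -0.32 ± 0.079 and 0.24 ± 0.078 with ouabain and -0.34 ± 0.079, -0.26 ± 0.079 and 0.27 ± 0.078 with digoxin at 36 h with the inhibitor, at 36 h and at 16 h. The rise at 16 h turned to -0.048 with ouabain and -0.050 with digoxin under library totals. VMP1 lost its call with ouabain at 16 h on leaving out senescent replicate 2 (0.20). VMP1 with ouabain at 16 h (0.16) and with digoxin at 16 h (0.19) lost its calls without the filter on low counts.

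Of the conjugation enzymes 2 rose in every arm. ATG3, the enzyme that transfers ATG8 proteins to the membrane lipid, measured 145, 150.4 and 146 CPM with ouabain and 156, 169 and 162 CPM with digoxin at 36 h, against 35.3, 37.2 and 34.8 CPM with vehicle. At 16 h it measured 105, 69.1 and 103 CPM with ouabain and 115, 114 and 120.2 CPM with digoxin, against 43.2, 36.9 and 41.7 CPM with vehicle, again without overlap. Its log2 change was 2.21 ± 0.12, 2.04 ± 0.12 and 1.19 ± 0.12 with ouabain and 2.25 ± 0.12, 2.19 ± 0.12 and 1.52 ± 0.12 with digoxin at 36 h with the inhibitor, at 36 h and at 16 h. Without both deviating 16 h libraries the ouabain value at 16 h was 1.36. ATG12, the ubiquitin-like protein joined to ATG5, also rose in every arm (0.88, 0.79 and 0.79 with ouabain and 0.96, 1.08 and 0.87 with digoxin). SLC35A5, which overlaps ATG3 on the opposite strand, had 22769 counts in all libraries together, against 53336 for ATG3. AP3S1, which overlaps ATG12 in the same way, had 61719 counts, against 99492 for ATG12.

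ATG10 and ATG5 fell in every arm. ATG10 measured 2.10, 2.61 and 1.36 CPM with ouabain and 2.28, 1.49 and 1.42 CPM with digoxin at 36 h, against 5.53, 4.83 and 5.60 CPM with vehicle. Every drug library lay below every vehicle library, at low counts. Its log2 change was -1.14 ± 0.21, -1.34 ± 0.21 and -0.99 ± 0.20 with ouabain and -1.87 ± 0.22, -1.62 ± 0.23 and -0.93 ± 0.20 with digoxin at 36 h with the inhibitor, at 36 h and at 16 h. RPS23, which overlaps it on the opposite strand, had 210936 counts in all libraries together, against 2948 for ATG10. ATG5, the partner of ATG12, measured 17.4, 21.0 and 18.9 CPM with ouabain and 14.3, 18.4 and 17.7 CPM with digoxin at 16 h, against 32.0, 32.4 and 33.5 CPM with vehicle, without overlap. Its log2 change was -0.63, -0.46 and -0.77 with ouabain and -0.53, -0.50 and -0.96 with digoxin. ATG16L1, which places the ATG12 and ATG5 conjugate on the membrane, was lower at -0.28, -0.24 and -0.64 with ouabain and -0.18, -0.22 and -0.89 with digoxin, the digoxin value with the inhibitor not being called. ATG7, the activating enzyme for ATG12 and ATG8 proteins, changed little: -0.35, -0.19 and 0.19 with ouabain, all called, and -0.19, -0.17 and 0.12 with digoxin, called with the inhibitor alone, and library totals turned the values at 16 h to -0.091 for ouabain and -0.20 for digoxin. ATG16L1 lost its call with ouabain at 36 h with the inhibitor on leaving out ouabain replicate 1 (-0.25). ATG16L1 lost its call with ouabain at 36 h on leaving out ouabain replicates 1 or 2 or senescent replicate 1 (-0.22 to -0.20). ATG16L1 lost its call with digoxin at 36 h on leaving out digoxin replicates 2 or 3 or senescent replicates 1 or 2 (-0.23 to -0.17). ATG7 lost its call with ouabain at 36 h on leaving out ouabain replicate 1 or senescent replicates 1 or 3 (-0.20 to -0.15). ATG7 lost its call with ouabain at 16 h on leaving out any ouabain replicate or senescent replicates 2 or 3 (0.16 to 0.20). ATG7 lost its call with digoxin at 36 h with the inhibitor on leaving out digoxin replicates 1 or 2 or senescent replicates 1 or 3 (-0.20 to -0.12). ATG16L1 with digoxin at 36 h (-0.28) and ATG7 with ouabain at 16 h (0.12) and with digoxin at 36 h with the inhibitor (-0.20) lost their calls without the filter on low counts. ATG16L1 with digoxin at 36 h (-0.18) and ATG7 with ouabain at 36 h (-0.17) and with digoxin at 36 h with the inhibitor (-0.14) lost their calls under RLE size factors and under DESeq2.

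The ATG4 proteases, which trim ATG8 proteins and release them from the membrane, did not move together. ATG4A measured 20.3, 25.4 and 23.2 CPM with ouabain and 24.6, 21.1 and 20.1 CPM with digoxin at 36 h, against 35.6, 33.5 and 36.8 CPM with vehicle, without overlap. ATG4A fell by 0.65, 0.62 and 0.40 with ouabain and by 0.79, 0.69 and 0.54 with digoxin on the log2 scale at 36 h with the inhibitor, at 36 h and at 16 h. ATG4C fell as well (-0.79, -0.69 and -0.37 with ouabain and -1.07, -0.92 and -0.46 with digoxin), while ATG4D was higher (0.26, 0.52 and 0.34 with ouabain and 0.35, 0.57 and 0.17 with digoxin, the last not called). ATG4B was called higher for ouabain at 36 h alone (0.24). KRI1, which overlaps ATG4D on the opposite strand, had 8001 counts in all libraries together, against 6112 for ATG4D. ATG4B lost its call with ouabain at 36 h on leaving out ouabain replicate 1 (0.20). ATG4C lost its call with ouabain at 16 h on leaving out ouabain replicate 1 or senescent replicate 1 (-0.32 to -0.29). ATG4D lost its call with ouabain at 36 h with the inhibitor on leaving out ouabain replicates 1 or 3 or any senescent replicate (0.20 to 0.28). ATG4D lost its call with ouabain at 16 h on leaving out senescent replicate 3 (0.26). ATG4B with ouabain at 36 h (0.022) and ATG4D with ouabain at 36 h with the inhibitor (0.048), with ouabain at 16 h (0.056) and with digoxin at 36 h with the inhibitor (0.10) lost their calls under library totals. ATG4B with ouabain at 36 h (0.16) and ATG4D with ouabain at 36 h with the inhibitor (0.25), with ouabain at 16 h (0.27) and with digoxin at 36 h with the inhibitor (0.33) lost their calls without the filter on low counts.

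In the ULK complex the scaffold RB1CC1 rose in every arm (0.96 ± 0.079, 1.15 ± 0.079 and 0.87 ± 0.079 with ouabain and 1.01 ± 0.079, 1.33 ± 0.079 and 0.85 ± 0.079 with digoxin at 36 h with the inhibitor, at 36 h and at 16 h). It averaged 219 ± 6.02 CPM with ouabain and 249 ± 4.78 CPM with digoxin at 36 h, against 99.2 ± 2.30 CPM with vehicle. ATG101, which stabilises ATG13, rose as well (1.05, 1.03 and 0.57 with ouabain and 0.94, 0.82 and 0.43 with digoxin). ATG13, the adaptor between kinase and scaffold, rose at 36 h with and without the inhibitor (0.36 and 0.46 with ouabain, 0.38 and 0.43 with digoxin) and was 0.026 and -0.005 at 16 h, not called, with -0.26 for ouabain under library totals. The kinase ULK1 fell with digoxin in all arms (-0.74, -0.67 and -0.61) and was called lower with ouabain at 36 h with the inhibitor and at 16 h (-0.69, -0.28 and -0.52). ULK2, the related kinase, fell at 36 h with ouabain (-0.49) and with digoxin (-0.45), and with digoxin and the inhibitor (-0.47). ATG13 with digoxin at 36 h (0.11) and ATG101 with digoxin at 16 h (0.12) lost their calls under library totals.

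Among the cargo receptors, CALCOCO2, which binds bacteria and mitochondria marked with ubiquitin or galectins, measured 54.2, 54.1 and 52.9 CPM with ouabain and 47.7, 52.3 and 47.9 CPM with digoxin at 36 h, against 106, 108 and 111 CPM with vehicle. All drug libraries were lower than all vehicle libraries, and the log2 change was -1.07 ± 0.076, -1.01 ± 0.075 and -0.42 ± 0.074 with ouabain and -1.10 ± 0.076, -1.13 ± 0.076 and -0.65 ± 0.074 with digoxin at 36 h with the inhibitor, at 36 h and at 16 h. NBR1, a receptor for protein aggregates and peroxisomes, measured 103, 97.9 and 105 CPM with ouabain and 90.1, 107 and 102 CPM with digoxin at 36 h, against 201, 198 and 198 CPM with vehicle, again without overlap. NBR1 fell by 1.04, 0.96 and 0.30 with ouabain and by 1.11, 1.00 and 0.28 with digoxin on the log2 scale. TAX1BP1, a receptor for ubiquitin-marked aggregates, rose in every arm (0.48, 0.61 and 0.63 with ouabain and 0.58, 0.72 and 0.68 with digoxin). OPTN, a receptor for damaged mitochondria, was higher at 16 h (0.41 with ouabain and 0.33 with digoxin), slightly lower with the inhibitor at 36 h (-0.25 and -0.18) and not called at 36 h without it (0.12 and 0.022, the digoxin value turning to -0.29 with library totals). OPTN lost its call with digoxin at 36 h with the inhibitor on leaving out digoxin replicates 2 or 3 or senescent replicates 1 or 3 (-0.20 to -0.14). OPTN with ouabain at 16 h (0.13) and with digoxin at 16 h (0.017) lost its calls under library totals. OPTN with digoxin at 36 h with the inhibitor (-0.19) lost its call without the filter on low counts. OPTN with digoxin at 36 h with the inhibitor (-0.13) lost its call under RLE size factors and under DESeq2.

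**Figure D2:**
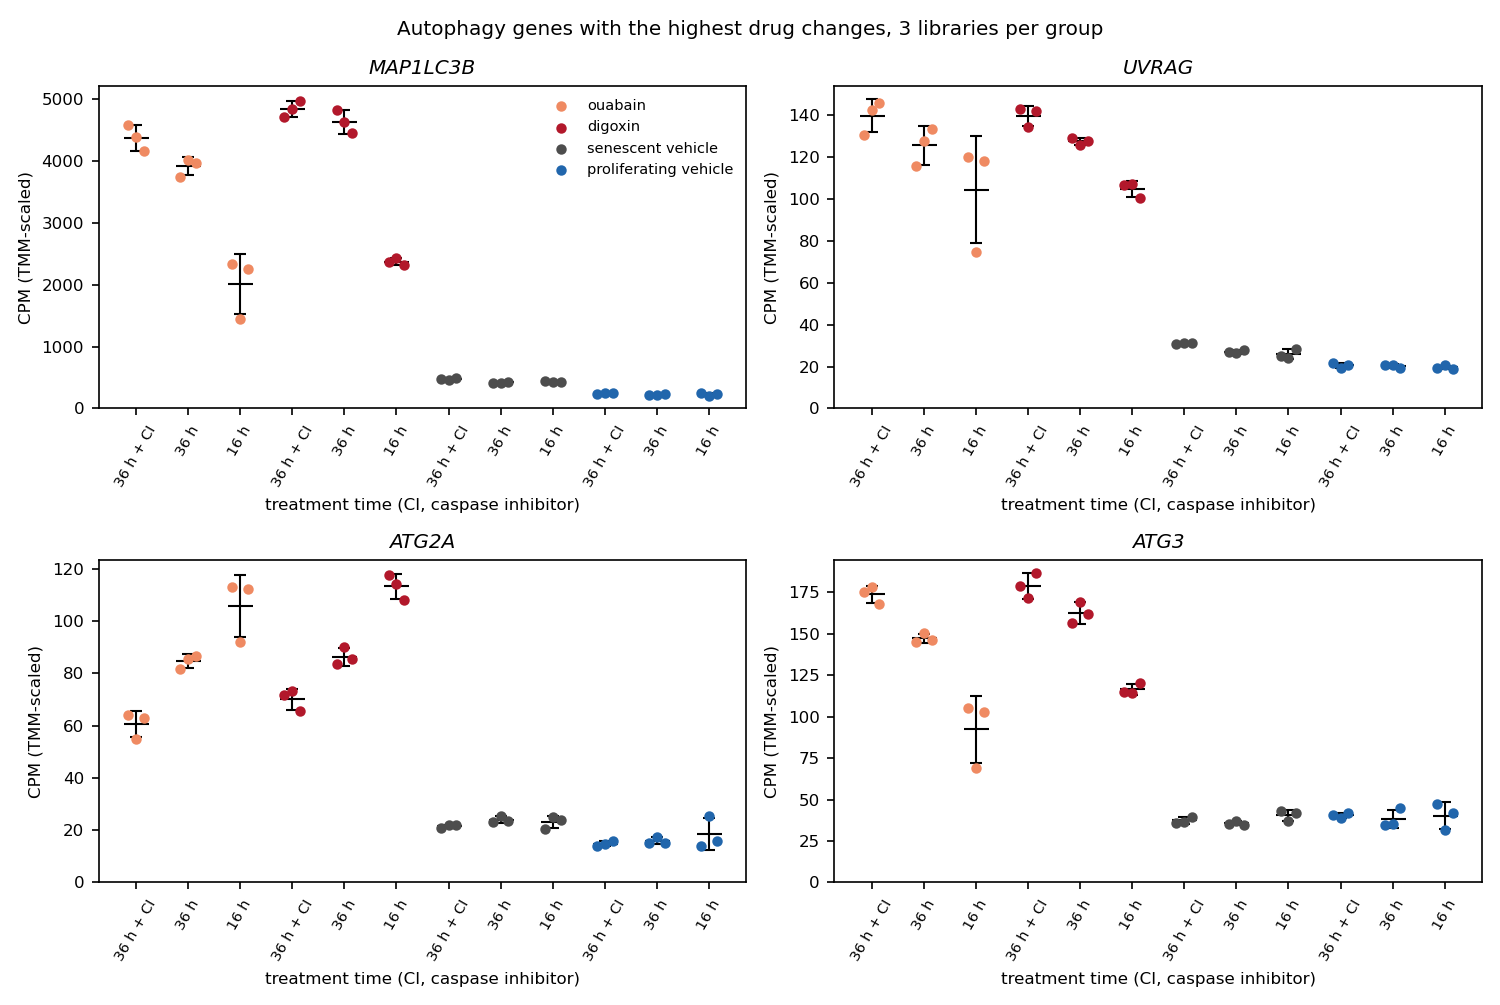
Level of MAP1LC3B, UVRAG, ATG2A and ATG3 (TMM-scaled CPM, linear axis from 0) in every library, by treatment and time (CI, caspase inhibitor). Points are libraries, horizontal lines group means and bars SD (n = 3); all ouabain and digoxin points lie above all vehicle points, and MAP1LC3B and ATG3 are higher at 36 h than at 16 h while ATG2A is lower.

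The 250 bases before the annotated start of MAP1LC3B, ATG2A, ATG3 and GABARAPL1 are shown as examples. They were picked from the genes called higher with both drugs in every arm, after their values were seen. The bases come from RefSeq (GRCh38.p14) and are printed 5′ to 3′ along the gene, and 32 of the 36 genes had an entry there. They lie at chr16:87392086-87392335, plus strand, for MAP1LC3B, chr11:64917210-64917459, minus strand, for ATG2A, chr3:112561963-112562212, minus strand, for ATG3, and chr12:10212627-10212876, plus strand, for GABARAPL1. Capitals mark the letters CACGTG in ATG3, an E-box of the kind bound by TFEB and related factors, and TGACGTCA in GABARAPL1, the cAMP response element; in the other promoters none of the letters searched occurred.
MAP1LC3B: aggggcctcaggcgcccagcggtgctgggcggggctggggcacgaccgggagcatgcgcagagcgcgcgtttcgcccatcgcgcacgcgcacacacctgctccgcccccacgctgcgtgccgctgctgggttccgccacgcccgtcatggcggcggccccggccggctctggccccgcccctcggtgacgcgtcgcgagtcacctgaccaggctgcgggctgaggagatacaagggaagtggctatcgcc
ATG2A: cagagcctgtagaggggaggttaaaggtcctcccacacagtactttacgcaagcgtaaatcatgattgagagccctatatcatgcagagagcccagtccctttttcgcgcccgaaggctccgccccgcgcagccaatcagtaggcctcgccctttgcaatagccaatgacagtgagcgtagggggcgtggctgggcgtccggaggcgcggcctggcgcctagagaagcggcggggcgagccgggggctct
ATG3: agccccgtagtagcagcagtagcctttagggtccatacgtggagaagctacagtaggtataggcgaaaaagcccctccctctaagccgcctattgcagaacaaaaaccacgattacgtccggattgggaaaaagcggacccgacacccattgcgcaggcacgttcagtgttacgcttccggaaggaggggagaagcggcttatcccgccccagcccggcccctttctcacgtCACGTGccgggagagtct
GABARAPL1: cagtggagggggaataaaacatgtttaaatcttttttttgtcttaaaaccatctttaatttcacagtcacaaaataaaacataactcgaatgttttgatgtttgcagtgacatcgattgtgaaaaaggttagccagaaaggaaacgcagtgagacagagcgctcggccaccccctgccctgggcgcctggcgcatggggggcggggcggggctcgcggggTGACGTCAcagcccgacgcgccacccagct

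The letters CACGTG began 18 bases before the start of ATG3 and 21 bases before that of ATG14, and they occurred in 2 of the 32 promoters, against 6.49% of 27305 promoters of the same length. TGACGTCA began 30 bases before the start of GABARAPL1 and occurred in 1 of the 32, against 1.77% of all. TGATGNAA, the composite element of ATF4 and CHOP, and TGACTCA, the AP-1 site, occurred in 0 of the 32, against 3.19% and 4.16% of all (both strands searched, overlapping matches allowed).

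Whether the drug effect differed between 36 h and 16 h was tested as an interaction, the drug effect at 36 h minus that at 16 h. With ouabain 8 of the 36 moved up between the times and 10 down, against 18.4% and 16.7% of all genes (35.1% in either direction). With digoxin 10 moved up and 10 down, against 23.4% and 19.3% of all genes (42.7% in either direction). PIK3R4 differed most, by 1.56 ± 0.18 with ouabain and 2.04 ± 0.19 with digoxin (log2, ± SE, with adjusted p = 2.03e-08 and 7.18e-11 by edgeR). MAP1LC3B moved up by 0.99 ± 0.14 with ouabain and 0.99 ± 0.14 with digoxin, ATG3 by 0.86 and 0.66, and GABARAPL1 by 0.50 and 0.51. In the ULK complex ATG13, ATG101 and RB1CC1 moved up with both drugs (0.43, 0.46 and 0.28 with ouabain, 0.43, 0.39 and 0.47 with digoxin) and ULK2 moved down (-0.43 and -0.44). Of the membrane factors ATG9A, VMP1 and WIPI1 moved down with both drugs (-0.39, -0.56 and -0.66 with ouabain, -0.61, -0.52 and -0.52 with digoxin), and so did the receptors NBR1, OPTN and CALCOCO2 (-0.67, -0.29 and -0.59 with ouabain, -0.72, -0.31 and -0.48 with digoxin).

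The level of UVRAG did not differ detectably in its drug effect between the times (0.20 ± 0.15 with ouabain and 0.22 ± 0.15 with digoxin), nor did that of ATG12 (-0.001 ± 0.12 and 0.21 ± 0.12). Under every alternative 12 of the 18 calls for ouabain and 13 of the 20 for digoxin were made. ULK2 lost its call for the change between times with ouabain on leaving out ouabain 36 h replicate 1 or ouabain 16 h replicates 1 or 3 or senescent 36 h replicates 1 or 3 or senescent 16 h replicate 1 (-0.41 to -0.32). ATG101 lost its call for the change between times with ouabain on leaving out ouabain 36 h replicate 1 (0.36). RB1CC1 lost its call for the change between times with ouabain on leaving out any ouabain 36 h replicate or ouabain 16 h replicate 2 or any senescent 36 h replicate or senescent 16 h replicates 2 or 3 (0.12 to 0.30). ATG16L1 lost its call for the change between times with ouabain on leaving out ouabain 36 h replicate 3 or ouabain 16 h replicate 3 or senescent 36 h replicate 3 or senescent 16 h replicate 2 (0.28 to 0.36). OPTN lost its call for the change between times with ouabain on leaving out ouabain 36 h replicates 2 or 3 or ouabain 16 h replicates 1 or 3 or any senescent 36 h replicate or senescent 16 h replicates 2 or 3 (-0.30 to -0.27). ULK2 (-0.37) and OPTN (-0.23) lost their calls for the change between times with ouabain under library totals. ULK2 (-0.43), RB1CC1 (0.27), ATG7 (-0.39), ATG16L1 (0.38) and OPTN (-0.30) lost their calls for the change between times with ouabain without the filter on low counts. RB1CC1 (0.12) lost its call for the change between times with ouabain without both deviating 16 h libraries. ULK2 lost its call for the change between times with digoxin on leaving out digoxin 36 h replicate 3 or digoxin 16 h replicate 3 or senescent 36 h replicate 3 or senescent 16 h replicate 1 (-0.38 to -0.35). ATG101 lost its call for the change between times with digoxin on leaving out digoxin 36 h replicate 1 or senescent 36 h replicate 3 or senescent 16 h replicate 3 (0.34 to 0.38). ATG2A lost its call for the change between times with digoxin on leaving out digoxin 36 h replicate 1 or digoxin 16 h replicate 1 or senescent 36 h replicate 2 or senescent 16 h replicate 1 (-0.43 to -0.38). ATG4D lost its call for the change between times with digoxin on leaving out digoxin 36 h replicate 1 or digoxin 16 h replicates 2 or 3 or senescent 36 h replicate 3 or senescent 16 h replicates 1 or 2 (0.35 to 0.38). ATG5 lost its call for the change between times with digoxin on leaving out digoxin 36 h replicates 1 or 2 or digoxin 16 h replicate 1 or any senescent 36 h replicate or senescent 16 h replicates 2 or 3 (0.35 to 0.47). ATG7 lost its call for the change between times with digoxin on leaving out digoxin 36 h replicate 1 or digoxin 16 h replicate 1 or senescent 36 h replicate 1 or senescent 16 h replicates 2 or 3 (-0.29 to -0.25). OPTN lost its call for the change between times with digoxin on leaving out digoxin 36 h replicate 3 (-0.29). ATG5 (0.46) lost its call for the change between times with digoxin under library totals. ULK2 (-0.41), ATG4D (0.42), ATG7 (-0.27) and OPTN (-0.29) lost their calls for the change between times with digoxin without the filter on low counts. ATG7 (-0.27) lost its call for the change between times with digoxin under RLE size factors.

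**Figure D3:**
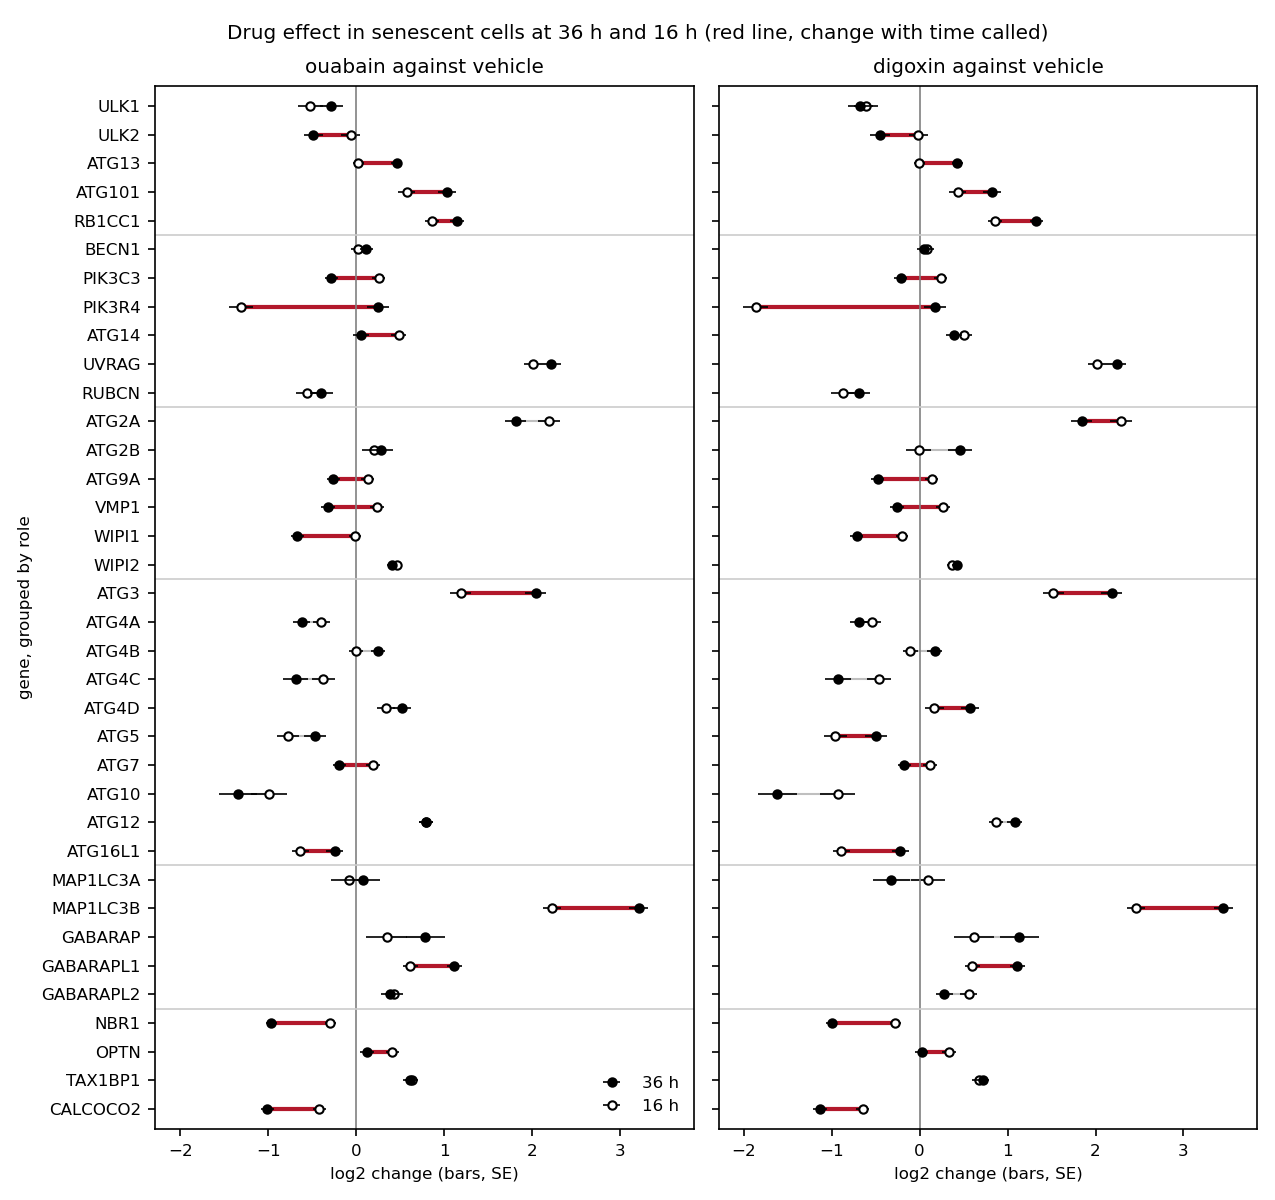
Log2 change against vehicle in senescent cells at 36 h (filled) and 16 h (open) for the 36 genes, with ouabain on the left and digoxin on the right; bars are SE. A red line joins the times where the change between them passed the test; the longest joins the PIK3R4 values, 0.25 and -1.31 with ouabain and 0.17 and -1.86 with digoxin.

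Ouabain and digoxin share a steroid core with an unsaturated lactone ring and differ in their sugar part, a rhamnose in ouabain and a chain of digitoxose units in digoxin, and in hydroxyl groups on the core. They were compared at matched times, but without stated doses it cannot be told whether the doses matched. Over the 36 genes and 3 arms 108 differences were tested, each adjusted over all genes of its arm, and 3 were called. At 36 h with the inhibitor 0 of 36 differed (3 at an unadjusted p under 0.05, and 0 by DESeq2), against 1.45% of all genes (0.439% higher and 1.01% lower). At 36 h ATG14 and ATG12 were lower with ouabain than with digoxin, against 3.85% of all genes called lower and 1.52% higher (5.36% in either direction). At 16 h PIK3R4 was higher, against 3.95% of all genes called higher and 0.984% lower (4.94% in either direction).

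ATG14 measured 47.2, 45.6 and 42.5 CPM with ouabain and 56.4, 57.5 and 57.2 CPM with digoxin at 36 h, a log2 difference of -0.34 (95% interval -0.52 to -0.16, adjusted p = 0.0205 by edgeR). ATG12 measured 178, 189 and 191 CPM with ouabain and 233, 232 and 218 CPM with digoxin, a difference of -0.29 (-0.46 to -0.12, adjusted p = 0.0302 by edgeR). The libraries of the drugs did not overlap for either gene. PIK3R4 at 16 h differed by 0.55 (0.25 to 0.85, adjusted p = 0.0234 by edgeR), with overlapping libraries. ATG14 lost its call between the drugs at 36 h on leaving out ouabain replicates 2 or 3 or any digoxin replicate (-0.34 to -0.30). ATG12 lost its call between the drugs at 36 h on leaving out any ouabain replicate or digoxin replicates 1 or 2 (-0.31 to -0.26). ATG14 (-0.24) and ATG12 (-0.20) lost their calls between the drugs at 36 h under library totals. PIK3R4 lost its call between the drugs at 16 h on leaving out ouabain replicate 2 or digoxin replicates 1 or 3 (0.23 to 0.59). PIK3R4 (0.23) lost its call between the drugs at 16 h without both deviating 16 h libraries. Without ouabain replicate 2 the PIK3R4 difference was 0.23.

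For the genes that rose most with both drugs the difference between them was not called. MAP1LC3B differed by -0.15 (-0.34 to 0.048), -0.24 (-0.44 to -0.050) and -0.24 (-0.43 to -0.044), ouabain minus digoxin, at 36 h with the inhibitor, at 36 h and at 16 h. At 36 h all ouabain libraries lay below all digoxin libraries for MAP1LC3B, and its adjusted p was 0.133 at 36 h and 0.16 at 16 h by edgeR. UVRAG differed by -0.001 (-0.20 to 0.20), -0.024 (-0.23 to 0.18) and -0.007 (-0.21 to 0.19). ATG2A differed by -0.21 (-0.45 to 0.026), -0.028 (-0.26 to 0.20) and -0.10 (-0.33 to 0.13), and ATG3 by -0.042 (-0.27 to 0.18), -0.14 (-0.37 to 0.083) and -0.34 (-0.56 to -0.11). Of the 108 intervals 91 lay within 0.5 of 0 on the log2 scale and 107 within 1, the exception being ATG10 with the inhibitor (0.73, 0.22 to 1.25).

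**Figure D4:**
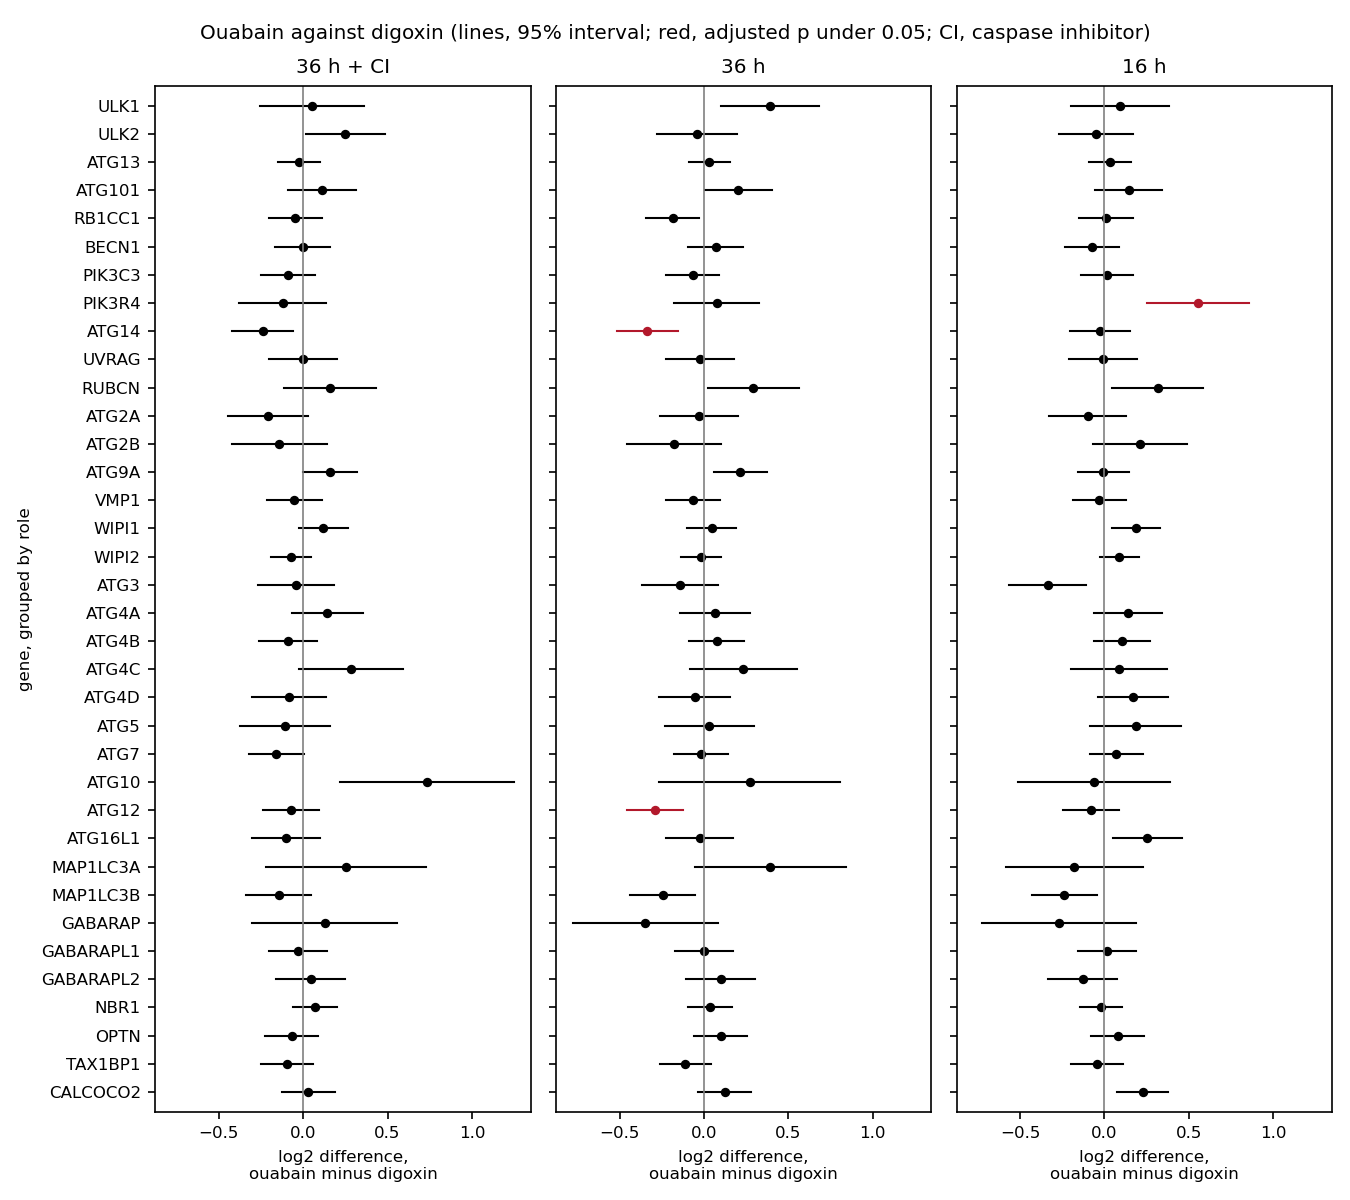
Log2 difference between ouabain and digoxin (ouabain minus digoxin) for the 36 genes at 36 h with the caspase inhibitor (CI), at 36 h and at 16 h; points are differences, lines 95% intervals, and red marks an adjusted p under 0.05. Red points stand at ATG14 (-0.34) and ATG12 (-0.29) at 36 h and at PIK3R4 (0.55) at 16 h.

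The effect of RAS-induced senescence itself was read from senescent against proliferating cells with vehicle. Most autophagy genes that changed were higher in senescent cells: 21, 17 and 20 of the 36 were called higher and 7, 7 and 7 lower at 36 h with the inhibitor, at 36 h and at 16 h. That is 77.8%, 66.7% and 75% of the 36, against 52.3%, 52.5% and 51.6% of all genes tested (26.6%, 26.7% and 26.4% higher and 25.7%, 25.8% and 25.2% lower). The median log2 change of the 36 was 0.22, 0.18 and 0.28, against 0, -0.011 and 0.006 for all genes. Regardless of sign it was 0.355, 0.407 and 0.36, against 0.468, 0.457 and 0.441 for all genes. With library totals 14 members were called higher and 8 lower with the inhibitor. Of all genes tested, library totals called 3642 higher and 6052 lower there, against 4979 and 4808 with TMM. Under every alternative 19, 20 and 22 of the calls for the 36 were made.

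The ATG8 proteins split. GABARAPL1 measured 75.4, 80.1 and 71.8 CPM in senescent cells at 36 h and 229.8, 213 and 244 CPM in proliferating cells, and at 16 h 80.3, 83.2 and 79.0 CPM against 212, 154 and 195 CPM. Every senescent library lay below every proliferating one, and the log2 change was -1.64 ± 0.087, -1.59 ± 0.087 and -1.21 ± 0.086 at 36 h with the inhibitor, at 36 h and at 16 h, 3.02-fold lower at 36 h (adjusted p = 1.67e-17). MAP1LC3A measured 3.56, 3.96 and 4.53 CPM in senescent cells at 36 h, against 8.27, 11.9 and 13.4 CPM in proliferating cells, again without overlap, and fell by 1.41, 1.48 and 1.08 on the log2 scale. GABARAP fell at 36 h with and without the inhibitor (-0.84 and -0.75) and was 0.20 at 16 h, not called. In the same cells MAP1LC3B rose by 0.94 ± 0.10, 0.90 ± 0.10 and 0.93 ± 0.10, 1.87-fold at 36 h, and GABARAPL2 rose by 0.70, 0.63 and 0.75.

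VMP1 and ATG4A rose most. VMP1 measured 239, 234 and 236 CPM in senescent cells at 36 h, against 105, 89.3 and 111 CPM in proliferating cells, and ATG4A measured 35.6, 33.5 and 36.8 CPM against 19.3, 16.4 and 19.1 CPM. Neither gene had overlapping groups, and the log2 change was 1.20 ± 0.080, 1.22 ± 0.080 and 1.01 ± 0.080 for VMP1 and 1.03 ± 0.10, 0.95 ± 0.10 and 1.03 ± 0.10 for ATG4A at 36 h with the inhibitor, at 36 h and at 16 h. PTRH2, which overlaps VMP1 on the opposite strand, had 26366 counts in all libraries together, against 121848 for VMP1. ATG2A, WIPI1 and WIPI2 were higher as well (0.53, 0.59 and 0.33 for ATG2A, 0.53, 0.42 and 0.39 for WIPI1 and 0.34, 0.49 and 0.37 for WIPI2), and ATG9A was lower with the inhibitor and at 16 h (-0.19 and -0.19). ATG2A lost its call in senescent cells at 16 h on leaving out senescent replicates 2 or 3 or proliferating replicates 1 or 3 (0.16 to 0.32). ATG9A lost its call in senescent cells at 36 h with the inhibitor on leaving out senescent replicate 1 or proliferating replicates 2 or 3 (-0.19 to -0.14). ATG9A lost its call in senescent cells at 16 h on leaving out senescent replicates 1 or 3 or proliferating replicate 2 (-0.18 to -0.10). ATG2A at 16 h (0.23) lost its call under library totals. ATG9A at 36 h with the inhibitor (-0.19) and at 16 h (-0.18) lost its calls without the filter on low counts. ATG9A at 16 h (-0.10) lost its call without both deviating 16 h libraries. The ATG2A change at 16 h was 0.63 (adjusted p = 2.21e-07 by edgeR) without both deviating 16 h libraries, and 0.63 without proliferating 16 h replicate 2 alone.

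Of the conjugation enzymes, ATG4B, ATG4D, ATG7, ATG12 and ATG16L1 rose in all 3 arms, ATG4D by 0.83, 0.81 and 0.87 and ATG7 by 0.51, 0.59 and 0.37. ATG5 was called higher with the inhibitor and at 16 h (0.34 and 0.43), ATG10 was called lower at 36 h alone (-0.41), and ATG3 and ATG4C were called in no arm (-0.11, -0.10 and 0.008 for ATG3 and 0.18, 0.005 and 0.29 for ATG4C). In the ULK complex ATG101 rose (0.68, 0.66 and 0.75) and ULK2 fell (-0.78, -0.70 and -0.56). ULK1 was not called (0.061, 0.094 and -0.17), RB1CC1 was called with the inhibitor and at 16 h (0.20 and 0.28), and the small rise of ATG13 with the inhibitor (0.15) turned to -0.005 with library totals. In the PI3-kinase complexes UVRAG and ATG14 rose (0.59, 0.40 and 0.40 for UVRAG and 0.21, 0.34 and 0.37 for ATG14) and PIK3C3 fell (-0.30, -0.38 and -0.51). RUBCN was called lower at 16 h (-0.34), and BECN1 and PIK3R4 were not called. ATG5 was 0.28 at 16 h without both deviating 16 h libraries. ATG12 lost its call in senescent cells at 36 h on leaving out senescent replicates 1 or 3 or proliferating replicates 1 or 2 (0.17 to 0.22). ATG12 lost its call in senescent cells at 16 h on leaving out senescent replicates 1 or 3 or proliferating replicate 2 (0.10 to 0.20). ATG5 lost its call in senescent cells at 36 h with the inhibitor on leaving out senescent replicates 1 or 2 or proliferating replicate 1 (0.31 to 0.33). ATG10 lost its call in senescent cells at 36 h on leaving out any senescent replicate or any proliferating replicate (-0.45 to -0.34). RB1CC1 lost its call in senescent cells at 36 h with the inhibitor on leaving out senescent replicates 1 or 3 or proliferating replicates 2 or 3 (0.18 to 0.20). ATG13 lost its call in senescent cells at 36 h with the inhibitor on leaving out senescent replicates 2 or 3 or proliferating replicates 1 or 3 (0.13 to 0.15). ATG14 lost its call in senescent cells at 36 h with the inhibitor on leaving out any senescent replicate or proliferating replicates 2 or 3 (0.20 to 0.22). RUBCN lost its call in senescent cells at 16 h on leaving out senescent replicate 1 or proliferating replicate 2 (-0.24 to -0.11). ATG4B at 36 h (0.15), ATG12 at 36 h with the inhibitor (0.14), at 36 h (0.064) and at 16 h (0.11), ATG16L1 at 36 h with the inhibitor (0.21), ATG5 at 36 h with the inhibitor (0.19), RB1CC1 at 36 h with the inhibitor (0.049) and ATG14 at 36 h with the inhibitor (0.059) and at 36 h (0.19) lost their calls under library totals. ATG12 at 36 h (0.23) and at 16 h (0.23), ATG10 at 36 h (-0.39), RB1CC1 at 36 h with the inhibitor (0.20), ATG13 at 36 h with the inhibitor (0.15) and ATG14 at 36 h with the inhibitor (0.21) lost their calls without the filter on low counts. ATG10 at 36 h (-0.40), ATG13 at 36 h with the inhibitor (0.14) and ATG14 at 36 h with the inhibitor (0.20) lost their calls under RLE size factors. ATG14 at 36 h with the inhibitor (0.20) lost its call under DESeq2. ATG12 at 16 h (0.094) and RUBCN at 16 h (-0.11) lost their calls without both deviating 16 h libraries.

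Of the receptors CALCOCO2 measured 106, 108 and 111 CPM in senescent cells at 36 h, against 69.7, 67.0 and 62.1 CPM in proliferating cells, and rose by 0.68, 0.71 and 0.75 on the log2 scale. OPTN rose by 0.51, 0.55 and 0.36, NBR1 fell by 0.22, 0.32 and 0.25, and TAX1BP1 was called higher with the inhibitor and at 16 h (0.20 and 0.24). TAX1BP1 lost its call in senescent cells at 36 h with the inhibitor on leaving out senescent replicate 1 or proliferating replicate 3 (0.19 to 0.20). TAX1BP1 lost its call in senescent cells at 16 h on leaving out proliferating replicate 2 (0.11). TAX1BP1 at 36 h with the inhibitor (0.050) and at 16 h (0.13) lost its calls under library totals. NBR1 at 36 h with the inhibitor (-0.23) and TAX1BP1 at 36 h with the inhibitor (0.20) lost their calls without the filter on low counts. TAX1BP1 at 16 h (0.11) lost its call without both deviating 16 h libraries. The OPTN change at 16 h was 0.21 without both deviating 16 h libraries and 0.22 without proliferating 16 h replicate 2 alone. The senescent vehicle libraries serve in these comparisons and in those of the drugs, so the values of a gene in both are not independent.

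**Figure D5:**
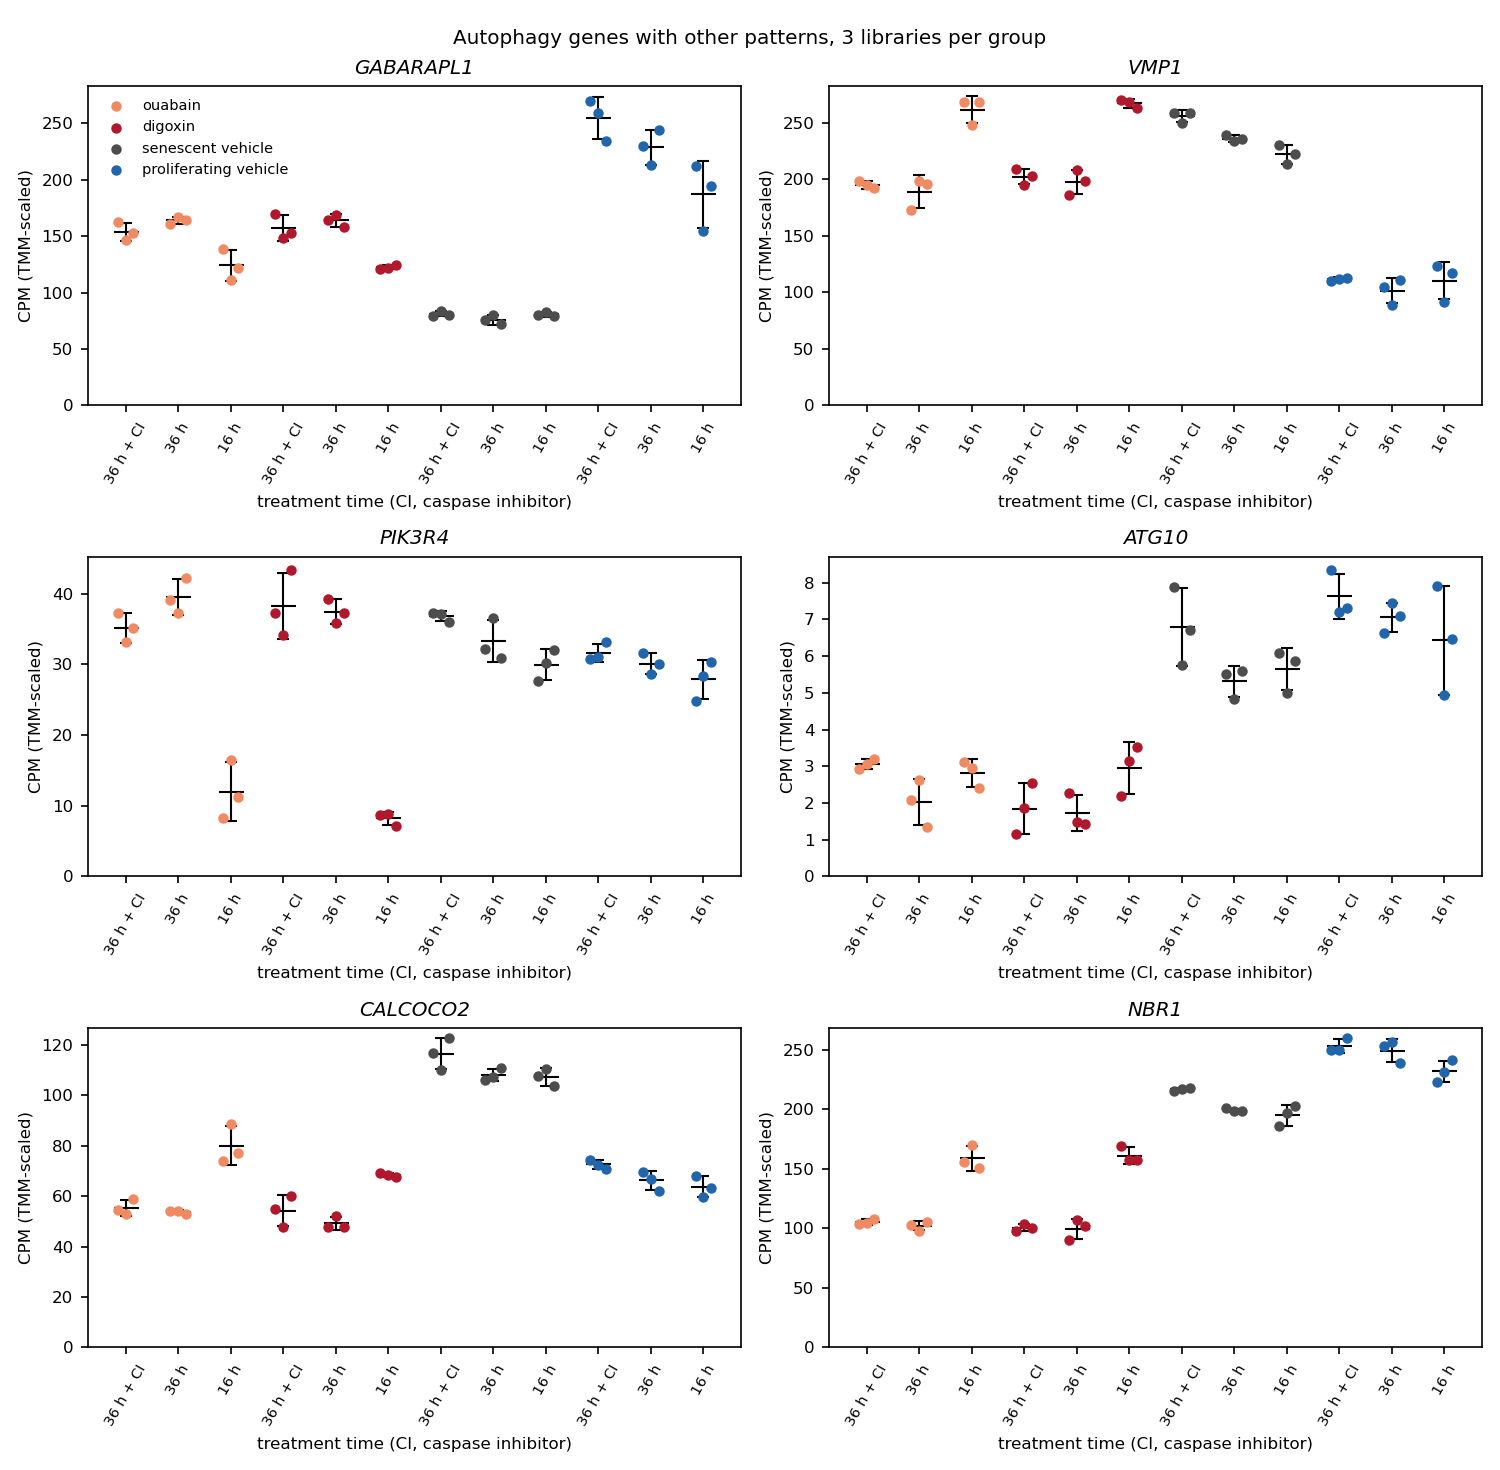
Level of GABARAPL1, VMP1, PIK3R4, ATG10, CALCOCO2 and NBR1 (TMM-scaled CPM, linear axes from 0) in every library, by treatment and time (CI, caspase inhibitor). Points are libraries, horizontal lines group means and bars SD (n = 3); PIK3R4 is low in ouabain and digoxin libraries at 16 h alone, and NBR1 is lowest in both drug groups at 36 h.

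The caspase inhibitor blocks the proteases of apoptosis. At 36 h 25% of the 36 autophagy genes were called with it in ouabain-treated cells, against 8.89% of all genes, 11.1% in senescent vehicle cells, against 7.41%, and 0 in digoxin-treated and proliferating cells. Regardless of sign, the median log2 change in ouabain-treated cells was 0.165 for the 36 and 0.195 for all genes. For senescent vehicle cells these medians were 0.131 and 0.187. In ouabain-treated cells 2 of the 36 were higher with the inhibitor and 7 lower, against 5.31% and 3.58% of all genes (8.89% in either direction). With library totals 1 was higher and 8 lower, against 664 and 991 of all genes (992 and 670 with TMM). ULK2 and ATG12 were the higher ones (0.39 and 0.38), and ULK1, ATG101, ATG2A, WIPI2, ATG4B, ATG7 and OPTN the lower ones (-0.48, -0.32, -0.48, -0.18, -0.39, -0.28 and -0.41). OPTN measured 226, 220.0 and 228 CPM with ouabain and the inhibitor, against 309.8, 299 and 287 CPM with ouabain alone, and ATG12 measured 243, 244 and 239 CPM against 178, 189 and 191 CPM, both without overlap. ATG12 and OPTN were called under every alternative; the others were lost under at least 1. ULK1 lost its call with the inhibitor in ouabain-treated cells on leaving out any ouabain-plus-inhibitor replicate or ouabain-only replicate 1 (-0.50 to -0.35). ULK2 lost its call with the inhibitor in ouabain-treated cells on leaving out ouabain-plus-inhibitor replicates 1 or 3 or ouabain-only replicate 1 (0.29 to 0.38). ATG101 lost its call with the inhibitor in ouabain-treated cells on leaving out any ouabain-plus-inhibitor replicate or ouabain-only replicates 1 or 2 (-0.35 to -0.22). ATG2A lost its call with the inhibitor in ouabain-treated cells on leaving out ouabain-plus-inhibitor replicate 2 (-0.41). WIPI2 lost its call with the inhibitor in ouabain-treated cells on leaving out any ouabain-plus-inhibitor replicate or any ouabain-only replicate (-0.20 to -0.15). ATG7 lost its call with the inhibitor in ouabain-treated cells on leaving out ouabain-plus-inhibitor replicates 1 or 2 or ouabain-only replicates 2 or 3 (-0.30 to -0.25). ULK2 (0.34) lost its call with the inhibitor in ouabain-treated cells under library totals. ULK1 (-0.43), ULK2 (0.44), ATG101 (-0.28), WIPI2 (-0.13), ATG4B (-0.35) and ATG7 (-0.24) lost their calls with the inhibitor in ouabain-treated cells without the filter on low counts. WIPI2 (-0.16) lost its call with the inhibitor in ouabain-treated cells under RLE size factors.

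In senescent vehicle cells RB1CC1, ATG4C and ATG12 were higher with the inhibitor (0.38, 0.49 and 0.29) and ATG101 was lower (-0.34). Of all genes 5.27% were called higher and 2.14% lower (7.41% in either direction). RB1CC1 measured 133, 124 and 129.6 CPM with the inhibitor and 102, 97.5 and 98.4 CPM without it and was called under every alternative. ATG101 lost its call with the inhibitor in senescent vehicle cells on leaving out any vehicle-plus-inhibitor replicate or any vehicle-only replicate (-0.39 to -0.30). ATG4C lost its call with the inhibitor in senescent vehicle cells on leaving out vehicle-plus-inhibitor replicates 1 or 2 or vehicle-only replicates 2 or 3 (0.43 to 0.51). ATG12 lost its call with the inhibitor in senescent vehicle cells on leaving out any vehicle-plus-inhibitor replicate or any vehicle-only replicate (0.27 to 0.31). ATG12 (0.22) lost its call with the inhibitor in senescent vehicle cells under library totals. ATG4C (0.46) and ATG12 (0.26) lost their calls with the inhibitor in senescent vehicle cells without the filter on low counts. In digoxin-treated cells 0 of 36 were called by edgeR (7 at an unadjusted p under 0.05, and 0 by DESeq2), against 0.877% of all genes (0.305% higher and 0.572% lower). In proliferating cells 0 were called by edgeR (6 at an unadjusted p under 0.05, and 1 higher and 2 lower by DESeq2), against 3.59% of all genes (2.75% higher and 0.834% lower). The drug effect with the inhibitor minus that without it was called for 0 of 36 genes with ouabain (2 at an unadjusted p under 0.05) and 0 with digoxin (1 at an unadjusted p under 0.05), and DESeq2 called 0 for either, against 0.150% and 0.246% of all genes.

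A further 57 genes that regulate or assist autophagy were listed, of which 56 were matched and 53 passed the filter. With ouabain 24, 26 and 23 of these 53 were called higher and 21, 20 and 18 lower, and with digoxin 24, 28 and 23 higher and 17, 19 and 18 lower at 36 h with the inhibitor, at 36 h and at 16 h. Over all genes 28.9%, 30.2% and 25.1% were called higher and 30.6%, 30.8% and 28.4% lower with ouabain, and 30.3%, 31.6% and 28.3% higher and 32.1%, 32.4% and 31.3% lower with digoxin. In senescent against proliferating cells 19, 21 and 20 of the 53 were higher and 8, 8 and 11 lower, against 26.6%, 26.7% and 26.4% higher and 25.7%, 25.8% and 25.2% lower of all genes. Named are called genes with the largest changes among those that reached the minimum CPM given with the processing of the data. Larger called changes among the 53, up to 5.38 with digoxin and 4.98 with ouabain at 36 h, belong to genes not named.

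Among regulators of mTORC1, the kinase complex that restrains autophagy, FLCN and its partner FNIP1, which act on the RAG GTPases at lysosomes, rose with both drugs. FLCN averaged 158 ± 4.41 CPM with ouabain at 36 h, against 35.3 ± 1.73 CPM with vehicle, and changed by 2.30, 2.16 and 2.49 with ouabain and 2.35, 2.28 and 2.66 with digoxin at 36 h with the inhibitor, at 36 h and at 16 h. FNIP1 rose by 1.82, 1.69 and 2.25 with ouabain and by 1.87, 2.03 and 2.56 with digoxin. TSC1, a brake on mTORC1, rose by 1.48, 1.77 and 1.67 with ouabain and by 1.73, 1.86 and 1.68 with digoxin. SESN1, a stress-induced inhibitor of mTORC1, fell (-1.30, -1.02 and -1.66 with ouabain and -1.22, -1.08 and -2.56 with digoxin), and the related SESN2 rose (1.97, 1.67 and 1.53 with ouabain and 2.07, 1.78 and 1.45 with digoxin). In senescent cells SESN3 averaged 12.7 ± 0.240 CPM at 36 h, against 64.8 ± 8.47 CPM in proliferating cells, a log2 change of -2.16, -2.34 and -1.80, while DDIT4, another inhibitor of mTORC1, changed by 0.20, 0.56 and 1.44, called higher without the inhibitor at 36 h and at 16 h. With the drugs DDIT4 rose by 1.08, 0.57 and 0.92 with ouabain and by 0.95, 0.39 and 0.34 with digoxin, and SESN3 changed by -1.29, -1.03 and -0.11 with ouabain and by -1.36, -0.78 and 0.17 with digoxin, called lower at 36 h with and without the inhibitor.

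Of the cargo and organelle receptors SQSTM1 (p62) averaged 5863 ± 27.5 CPM with ouabain at 36 h, against 1353 ± 11.9 CPM with vehicle. It rose by 1.79, 2.12 and 1.66 with ouabain and by 1.86, 2.03 and 1.91 with digoxin, and it was also higher in senescent than in proliferating cells (1.15, 1.20 and 1.35). BNIP3L, a receptor for mitochondria, rose by 1.58, 1.79 and 1.67 with ouabain and by 1.77, 2.11 and 1.83 with digoxin. RAB7A, a GTPase of late endosomes and lysosomes, averaged 3021 ± 409 CPM with ouabain and 3481 ± 125 CPM with digoxin at 36 h, against 609.9 ± 14.5 CPM with vehicle. It rose by 2.40, 2.31 and 1.65 with ouabain and by 2.46, 2.51 and 1.99 with digoxin, and was higher in senescent than in proliferating cells (0.98, 1.05 and 0.83). NRBF2, which joins the ATG14 complex, was higher in senescent cells (0.97, 0.92 and 0.87), and TP53INP1, which binds ATG8 proteins, rose by 1.56, 1.62 and 1.42 with ouabain and by 1.72, 2.07 and 1.55 with digoxin. DDIT4 lost its call with digoxin at 16 h on leaving out digoxin replicate 2 or senescent replicate 3 (0.27 to 0.31). DDIT4 with digoxin at 36 h (0.073) and with digoxin at 16 h (0.027) lost its calls under library totals. DDIT4 with digoxin at 16 h (0.26) lost its call without the filter on low counts.

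Between the drugs 0, 3 and 2 of the 53 were higher and 1, 4 and 1 lower with ouabain than with digoxin at 36 h with the inhibitor, at 36 h and at 16 h, against 0.439%, 1.52% and 3.95% higher and 1.01%, 3.85% and 0.984% lower of all genes. PRKAA1, a catalytic subunit of the energy sensor AMPK, was lower with ouabain at 36 h with and without the inhibitor (-0.36 and -0.46), as were TP53INP1 and the transcription factor FOXO3 at 36 h (-0.45 and -0.36) and RAB7A at 16 h (-0.33). DDIT4 was higher with ouabain at 16 h (0.58), and TECPR1, a tether to lysosomes, at 36 h (0.51). With the caspase inhibitor 6 of the 53 were higher and 3 lower in ouabain-treated cells, 8 and 2 in senescent vehicle cells, 7 and 0 in proliferating cells, and 0 in digoxin-treated cells. Of all genes 5.31% were higher and 3.58% lower in ouabain-treated cells, 5.27% and 2.14% in senescent vehicle cells, 2.75% and 0.834% in proliferating cells, and 0.877% were called in digoxin-treated cells. TP53INP1 was higher with it in ouabain-treated, senescent vehicle and proliferating cells (0.56, 0.62 and 0.45), SESN3 and the scramblase TMEM41B in senescent vehicle cells (0.82 and 0.54) and in proliferating cells (0.64 and 0.37). FNIP1 was higher (0.46) and AMBRA1, a regulator of BECN1, and SQSTM1 were lower (-0.50 and -0.41) with it in ouabain-treated cells, CCPG1, a receptor for the endoplasmic reticulum, was higher in senescent vehicle cells (0.42), and FOXO3 was higher in proliferating cells (0.37). PRKAA1 lost its call between the drugs at 36 h with the inhibitor on leaving out digoxin replicate 3 (-0.31). TP53INP1 lost its call between the drugs at 36 h on leaving out ouabain replicate 1 (-0.42). FOXO3 lost its call between the drugs at 36 h on leaving out digoxin replicate 1 (-0.31). RAB7A lost its call between the drugs at 16 h on leaving out ouabain replicate 2 or digoxin replicates 1 or 2 (-0.31 to -0.20). TECPR1 lost its call between the drugs at 36 h on leaving out ouabain replicates 1 or 2 or any digoxin replicate (0.44 to 0.55). TECPR1 between the drugs at 36 h (0.49) lost its call without the filter on low counts. RAB7A between the drugs at 16 h (-0.20) lost its call without both deviating 16 h libraries. TP53INP1 lost its call with the inhibitor in proliferating cells on leaving out proliferating-plus-inhibitor replicate 1 or proliferating-only replicate 3 (0.38 to 0.42). SESN3 lost its call with the inhibitor in proliferating cells on leaving out proliferating-plus-inhibitor replicate 1 or proliferating-only replicate 3 (0.54 to 0.61). TMEM41B lost its call with the inhibitor in proliferating cells on leaving out proliferating-plus-inhibitor replicate 1 (0.36). FNIP1 lost its call with the inhibitor in ouabain-treated cells on leaving out any ouabain-plus-inhibitor replicate or ouabain-only replicates 1 or 2 (0.37 to 0.49). AMBRA1 lost its call with the inhibitor in ouabain-treated cells on leaving out any ouabain-plus-inhibitor replicate or any ouabain-only replicate (-0.54 to -0.45). FOXO3 lost its call with the inhibitor in proliferating cells on leaving out proliferating-plus-inhibitor replicate 1 or proliferating-only replicate 3 (0.28 to 0.36). FNIP1 with the inhibitor in ouabain-treated cells (0.41) lost its call under library totals.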

How the data were processed

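RNA of 36 libraries was extracted with TRIzol and an RNeasy kit and made into stranded mRNA libraries, per the labels' protocols. The authors deposited 1 table of raw counts per gene. The submitters' processing notes name hg19, TopHat2 2.0.11 and featureCounts, with no version of the last and no strand setting. Libraries held 10854351 to 21446415 counts. Symbols came from a table of gene names, which matched 51058 of 57232 IDs; gene lengths and overlaps came from GENCODE (GRCh38) and promoters from RefSeq (GRCh38.p14).

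Genes were filtered with filterByExpr and scaled by TMM, and 12 group means were fitted over all 36 libraries with edgeR 4.0.16 (quasi-likelihood test, R 4.3.3). Calls had a Benjamini-Hochberg adjusted p under 0.05 over 18696 genes. Fits were tested on simulated data in which few genes changed, in either direction. In the real data most genes were called with the drugs, so the simulation did not test the scaling there. Alternatives were RLE size factors, library size scaling, no filter, DESeq2 1.42.0, a replicate block, each library left out, and both deviating 16 h libraries left out. Members and lists were chosen with earlier results of these data known. All 36 members are described; per-library values are given for the pair of called members with the largest change in each direction of the 9 comparisons of drug or senescence, and other values by library were added where a result turns on them. Of the other autophagy genes, up to 4 called genes per comparison with the largest change and at least 5 CPM are named.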

Additional observations from a re-analysis of the deposited data

Results flagged for a closer look

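By edgeR's test of the difference itself, the drug effect at 36 h differed from that at 16 h for 18 of the 36 autophagy genes with ouabain. With digoxin it differed for 20 of the 36. Of all genes tested, 35.1% were called with ouabain and 42.7% with digoxin in the same test. Both drugs share the vehicle libraries of these times. With ouabain the log2 effect was higher at 36 h than at 16 h for ATG13 (0.43), ATG101 (0.46), RB1CC1 (0.28), PIK3R4 (1.56), ATG3 (0.86), ATG16L1 (0.39), MAP1LC3B (0.99) and GABARAPL1 (0.50). With ouabain it was lower at 36 h for ULK2 (-0.43), PIK3C3 (-0.54), ATG14 (-0.43), ATG9A (-0.39), VMP1 (-0.56), WIPI1 (-0.66), ATG7 (-0.38), NBR1 (-0.67), OPTN (-0.29) and CALCOCO2 (-0.59). With digoxin it was higher at 36 h for ATG13 (0.43), ATG101 (0.39), RB1CC1 (0.47), PIK3R4 (2.04), ATG3 (0.66), ATG4D (0.40), ATG5 (0.46), ATG16L1 (0.67), MAP1LC3B (0.99) and GABARAPL1 (0.51). With digoxin it was lower at 36 h for ULK2 (-0.44), PIK3C3 (-0.46), ATG2A (-0.45), ATG9A (-0.61), VMP1 (-0.52), WIPI1 (-0.52), ATG7 (-0.29), NBR1 (-0.72), OPTN (-0.31) and CALCOCO2 (-0.48). For RB1CC1 with ouabain the difference was 0.12 without ouabain 16 h replicate 2 (adjusted p = 0.286 by edgeR).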

How the results depend on the processing

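Library size scaling takes no account of composition. Among 720 log2 changes it turned the sign of 15 that were called with it or with TMM. Sign changes where neither scaling gave a call were not counted. The 15 included ATG13 in senescent cells at 36 h with the inhibitor (-0.005) and ATG14 with ouabain at 36 h with the inhibitor (-0.21). With ouabain at 16 h they were ATG13 (-0.26), BECN1 (-0.27), PIK3C3 (-0.030), VMP1 (-0.048) and ATG7 (-0.091). With digoxin at 36 h they were BECN1 (-0.27), GABARAPL2 (-0.032) and OPTN (-0.29), and at 16 h BECN1 (-0.23), PIK3C3 (-0.076), ATG9A (-0.18), VMP1 (-0.050) and ATG7 (-0.20). It also gave 10 higher and 18 lower members with digoxin at 16 h and 11 higher with ouabain at 16 h. Of all genes it called 2937 higher and 8199 lower with digoxin at 16 h, and 2784 higher with ouabain at 16 h. Between the drugs 2 members were higher with ouabain at 16 h by library size scaling and by DESeq2, and 0 without both deviating libraries; 1 was lower without the filter and by DESeq2. At 36 h library size scaling gave 1 higher and 0 lower. For the inhibitor in proliferating cells RLE and DESeq2 gave 1 higher, and library size scaling and DESeq2 2 lower. Without the filter 1 member was higher in senescent vehicle cells, and 1 higher and 2 lower in ouabain-treated cells, where library size scaling gave 1 higher. The cause of these differences was not tested.

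With 1 library left out, members between the drugs numbered 0 to 2 higher and 0 to 2 lower at 16 h and 0 to 1 lower at 36 h. For the inhibitor they numbered 0 to 2 lower in proliferating cells, 1 to 2 higher and 0 lower in senescent vehicle cells, and 1 to 2 higher and 2 to 5 lower in ouabain-treated cells. Of the 720 log2 changes, 706 stayed called or not called as before under RLE, 704 under DESeq2, 674 without the filter and 646 under library size scaling. Direction was compared only where at least 1 of the fits made a call. Same-numbered libraries deviated together by correlations of -0.068 to 0.26, and in no comparison were all 3 over 0.1, so the numbers were not taken as pairs. With the replicate block 716 of the 720 changes kept their call. Those lost were ATG16L1 with digoxin at 36 h (-0.22, adjusted p = 0.0522 by edgeR), WIPI2 with the inhibitor in ouabain-treated cells (-0.18) and the RB1CC1 difference between times with ouabain (0.28), and the ATG2B difference between times with digoxin was gained (0.46, adjusted p = 0.0474 by edgeR). MAP1LC3A, GABARAP and ATG10 have few counts, which limits what can be seen of them.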
